A study of Canis lupus familiaris with 6 samples.

Results

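The axon guidance ligands and receptors described here are the ephrins and their Eph receptors, the semaphorins with the plexins and neuropilins that bind them, the slits and their Robo receptors, and netrins with their UNC5 receptors. Members were all genes whose symbol falls in these families and that are the only gene named for a probe set, which is the group of short probes that reads one transcript on an Affymetrix array. The rule took the Eph, ephrin, semaphorin, plexin, slit and Robo genes by the start of their symbols, and NRP1, NRP2, UNC5A to UNC5D, NTN1 and NTN4 by name. SLITRK genes were left out. It found 61 genes, read by 105 probe sets, of 15115 genes that have such a probe set. A further 5 genes of these families in the RefSeq gene table (EFNA2, EPHA5, PLXNA1, PLXNC1 and SEMA5B) had no probe set named for them and were not analysed here. Total RNA came from 6 primary cell lines of canine osteosarcoma, the bone-forming tumour, with 1 canine array per line. The tumorigenic lines, which gave tumours when grafted into mice, are UWKOS1, UWKOS3 and UWKOS7. The non-tumorigenic lines, which gave no tumour in mice, are UWKOS2, UWKOS6 and UWKOS8. RNA was taken from the cultured lines and not from the grafts, all lines were cultured and harvested alike, and no normal bone cells were used. The dogs behind the lines and the passage numbers are not given in the sources used here. A p-value sets the difference between the groups against the spread of lines within a group. Whether the 6 lines come from 6 dogs is not known.

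These families were named for steering growing axons, by attraction or repulsion, and most of them also act outside the nervous system on adhesion, migration and vessel growth. Ephrins are tethered to the cell surface and signal through Eph receptor tyrosine kinases on a touching cell. Secreted class 3 semaphorins bind a neuropilin, which hands the signal to a plexin, while membrane-bound semaphorins bind plexins directly. Slits bind Robo receptors, and netrins bind UNC5 receptors, DCC or neogenin. In bone, osteoblasts and osteoclasts signal to each other through ephrin B2 and EphB4, and SEMA3A, SEMA4D and SLIT3 are known regulators of bone formation or resorption.

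Levels are log2 probe set signals as deposited, so a difference of 1 is a doubling, and each gene is read by its brightest probe set. Levels of different genes were not set against each other, because probe sets differ in how strongly they bind. A gene was tested when its mean over the 6 lines was at or above 6.07, the median of all probe sets, and a call needed a limma adjusted p under 0.05 over all 9145 genes tested. Of the 61 members 23 were tested (37.7%, against 60.5% of all genes) and 38 lay below this filter. Measures of RNA quality and markers of the cell types a culture could hold were read in the same lines, and these values stand beside every result that follows. The 3′ minus 5′ signal of 4 control probe set pairs, which rises as RNA degrades, averaged 0.53 to 0.81 in the tumorigenic lines, 0.62 in UWKOS2, 1.55 in UWKOS6 and 1.48 in UWKOS8 (exact permutation p = 0.2, two-sided, where 3 lines against 3 cannot go below 0.1). The summed linear signal of 12 osteoblast markers was 21290 to 37540 in the tumorigenic and 43860 to 51420 in the non-tumorigenic lines. This sum was carried by COL1A1 (12.28 to 13.10 against 13.07 to 13.51), COL1A2 (13.17 to 14.15 against 14.44 to 14.60) and SPARC (12.41 to 13.31 against 13.52 to 13.71). It therefore says little about the other osteoblast markers. Of the 12 markers, ALPL, IBSP, SPP1, PHEX and DMP1 lay below the filter, although SPP1 read 9.76 in UWKOS1 and 2.79 to 3.30 in the other lines. The 7 tested included RUNX2 (0.22) and BGLAP (-0.44), with 6 lower and 1 higher on average. Only OMD passed, lower by 4.53 (limma adjusted p = 0.0261). The sums were also lower in each tumorigenic line for 12 fibroblast markers (39490 to 45500 against 83330 to 93600) and 10 smooth muscle markers (4833 to 31000 against 54590 to 67470). Of 8 tested smooth muscle markers 7 were lower and 1 higher on average. Among them 2 passed, both lower: ACTG2 (-3.19, limma adjusted p = 0.0214) and TPM2 (-1.50, limma adjusted p = 0.0492). Of 11 tested fibroblast markers 0 passed. Sums were likewise lower in each tumorigenic line for 12 macrophage markers (960.7 to 4111 against 9320 to 11570, with CSF1R, PTPRC, CD163 and AIF1 below the filter) and 11 endothelial markers (1124 to 1186 against 1284 to 1421, with PECAM1, VWF, TEK and EMCN below the filter). The macrophage sum was carried by the protease CTSK (8.06 to 11.77 against 13.05 to 13.39, limma adjusted p = 0.0692). CD68 was also lower on average (-1.07, limma adjusted p = 0.143), with UWKOS7 among the non-tumorigenic lines. C1QA, CD14 and ACP5 differed by -0.13, 0.04 and -0.18, and 0 of the 5 tested macrophage markers passed. The endothelial markers did not move together: ENG (-2.30) and ERG (-1.27) were lower in each tumorigenic line and KDR (1.11), EGFL7 (0.28) and the dim PECAM1 (0.84, limma adjusted p = 0.0412 without the filter) higher, and 0 of the 7 tested passed. Sums over 8 Schwann cell and glial markers (2113 to 5114 against 3180 to 4415) and 12 neuronal markers (1359 to 8017 against 933.9 to 2448, with 9 of the 12 below the filter) overlapped, and 7 epithelial markers summed to 307.2 to 688.6 against 230.9 to 279.5. Of the 3 tested neuronal markers MAP2, a microtubule protein of dendrites, rose by 2.60 (7.44 to 7.49 against 4.18 to 5.33, limma adjusted p = 0.0144). TUBB3 (-0.79, lower in each tumorigenic line) and GAP43 (1.47) did not pass (limma adjusted p = 0.121 and 0.409). The highest neuronal sum, 8017, was that of UWKOS1, where NEFL read 11.94 against 4.23 to 4.68 in the other lines. Of the 2 tested epithelial markers the keratin KRT7 rose by 0.81 (limma adjusted p = 0.0445), and CLDN3 differed by -0.14. The part of these cell types in the results was not tested. For RNA quality, fits with the transcript-end signal as a covariate and without UWKOS6 and UWKOS8 are given with the fits that leave out lines.

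Of the 23 members tested, 3 fell in the tumorigenic lines: the semaphorins SEMA4F and SEMA3C and the slit receptor ROBO1. In the same fit 0 rose, and 20 did not pass. Over all 9145 genes tested 12.1% were called, 7.5% as higher and 4.63% as lower, so the members' share of 13.0% was close to that of all genes for calls in either direction and above that for lower calls alone. Whether their share differed from that of other genes was not tested. At an unadjusted limma p under 0.05 there were 8 of the 23 members (34.8%), 7 lower and 1 higher (EPHA2), against 32.0% of all genes tested. In the fit over 21462 probe sets, which called 12.0%, 28 member probe sets lay above the filter and 2 were called, those of SEMA4F and SEMA3C. On average 18 of the 23 were lower and 5 higher in the tumorigenic lines, with a median difference of -0.40, whereas 47.4% of all genes tested were lower, with a median of 0.03. The groups did not overlap for 7 members with lower signal (16.6% of all genes tested) and for 1 with higher signal (21.7%). By role, 2 of 10 tested ligands and 1 of 13 tested receptors passed the threshold. In bulk RNA of this kind, fewer cells of a type and less RNA per cell cannot be told apart.

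**Figure D1:**
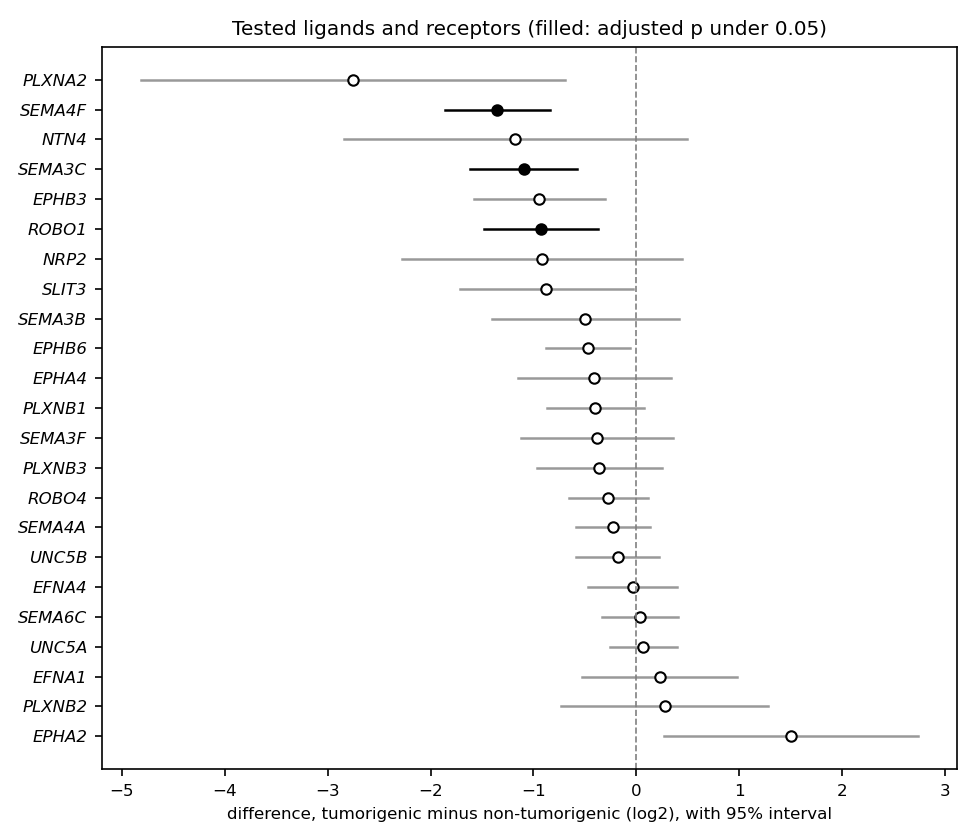
Log2 difference (tumorigenic minus non-tumorigenic) of the 23 tested members, with 95% intervals from limma, ordered by size; filled points have an adjusted p under 0.05. Points lie to the left of 0 for 18 members, and the filled ones are SEMA4F (-1.35), SEMA3C (-1.09) and ROBO1 (-0.92), while PLXNA2 (-2.76) lies furthest left with a wide interval.

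Among the semaphorins, 2 of the 6 tested fell and 4 did not pass, of 19 measured. SEMA4F is a membrane-spanning class 4 semaphorin. Its signal was 8.29 in UWKOS1, 7.73 in UWKOS3 and 8.01 in UWKOS7, against 9.55 in UWKOS2, 9.11 in UWKOS6 and 9.44 in UWKOS8. Each tumorigenic line lay below every non-tumorigenic one, and the lines of a group lay close together. The means were 8.01 ± 0.28 and 9.36 ± 0.23 (SD, n = 3 lines each), a difference of -1.35 (SE 0.21, limma adjusted p = 0.0199), or 2.55-fold lower. A dimmer SEMA4F probe set, also above the filter, gave -0.06 (limma adjusted p = 0.825 over probe sets), so this fall rests on 1 of the 2 probe sets.

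SEMA3C is a secreted semaphorin that signals through neuropilins and is best known from the development of the heart's outflow tract. Its only probe set read 8.34, 8.14 and 7.96 in UWKOS1, UWKOS3 and UWKOS7, and 9.59, 8.96 and 9.17 in UWKOS2, UWKOS6 and UWKOS8. The groups did not overlap, the highest tumorigenic line being UWKOS1 and the lowest non-tumorigenic one UWKOS6. The difference was -1.09 (SE 0.21, limma adjusted p = 0.0298), with means of 8.14 ± 0.19 and 9.24 ± 0.32 (SD, n = 3 lines each), or 2.14-fold lower.

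The other 4 tested semaphorins did not pass. The secreted SEMA3B differed by -0.49 and SEMA3F by -0.39, and for both UWKOS6 was the highest line, at 7.27 and 7.61. The membrane-bound SEMA4A differed by -0.23 and SEMA6C by 0.03, with limma adjusted p of 0.345 and 0.901. SEMA6C turned to the negative side in 5 of 17 alternative fits, among them quantile normalization and centring on the 75th percentile. Its 0.03 equals the median difference of all genes tested.

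Of the semaphorin receptors, NRP2 and 4 plexins were tested and 0 passed, although at an unadjusted p under 0.05 PLXNA2 was lower. PLXNA2, a plexin that pairs with neuropilins to receive class 3 semaphorins, had the widest range of any tested member. Its only probe set read 7.83 in UWKOS1 but 5.14 in UWKOS3 and 4.39 in UWKOS7, below the filter, against 8.95, 8.13 and 8.55 in UWKOS2, UWKOS6 and UWKOS8. UWKOS1 lay near the non-tumorigenic lines and the other tumorigenic lines far below. The difference of -2.76 (SE 0.85, 95% interval -4.81 to -0.70) had a limma adjusted p of 0.0824. Without UWKOS1 it was -3.78 with a limma adjusted p of 0.0238, without UWKOS7, the lowest line, it was -2.06 (limma adjusted p = 0.135), and with array weights it also passed (limma adjusted p = 0.0476).

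NRP2 is the co-receptor that binds class 3 semaphorins and the lymphatic growth factor VEGF-C. It read 9.70 in UWKOS1, 8.93 in UWKOS3 and 11.16 in UWKOS7, against 11.32, 10.59 and 10.63 in UWKOS2, UWKOS6 and UWKOS8. UWKOS7 stood among the non-tumorigenic lines, so the groups overlapped, and the difference of -0.92 (95% interval -2.28 to 0.44) did not pass (limma adjusted p = 0.316). Without UWKOS7 it was -1.53 (limma adjusted p = 0.0445) and without UWKOS3, the lowest line, -0.42 (limma adjusted p = 0.623), on the brightest probe set alone: the other NRP2 probe sets gave -0.21 and -0.07 over all 6 lines. NRP1, the sister co-receptor, lay just below the filter with a mean of 6.06 and a difference of 0.61 (limma adjusted p = 0.237 without the filter). Its 4 probe sets were all higher on average in the tumorigenic lines, by 0.16 to 0.61, whereas the 3 probe sets of NRP2 were all lower; neither gene passed.

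The 3 tested B-class plexins, receptors for class 4 semaphorins, did not pass. PLXNB1, the receptor of SEMA4D, differed by -0.40, PLXNB3 by -0.36 and PLXNB2 by 0.27, with limma adjusted p from 0.215 to 0.688. PLXNB2 was lowest in UWKOS8, at 6.64, and highest in UWKOS1, at 8.17. It turned negative in 4 of 17 alternative fits, with -0.08 without UWKOS8 and -0.47 as the lowest difference. Its other probe set, below the filter, gave -0.22. PLXND1, a receptor of SEMA3E, lay below the filter at a mean of 6.01 and differed by -0.17, with UWKOS7 highest at 6.65. PLXNA3 and PLXNA4 had means of 3.53 and 3.30, far below the filter.

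**Figure D2:**
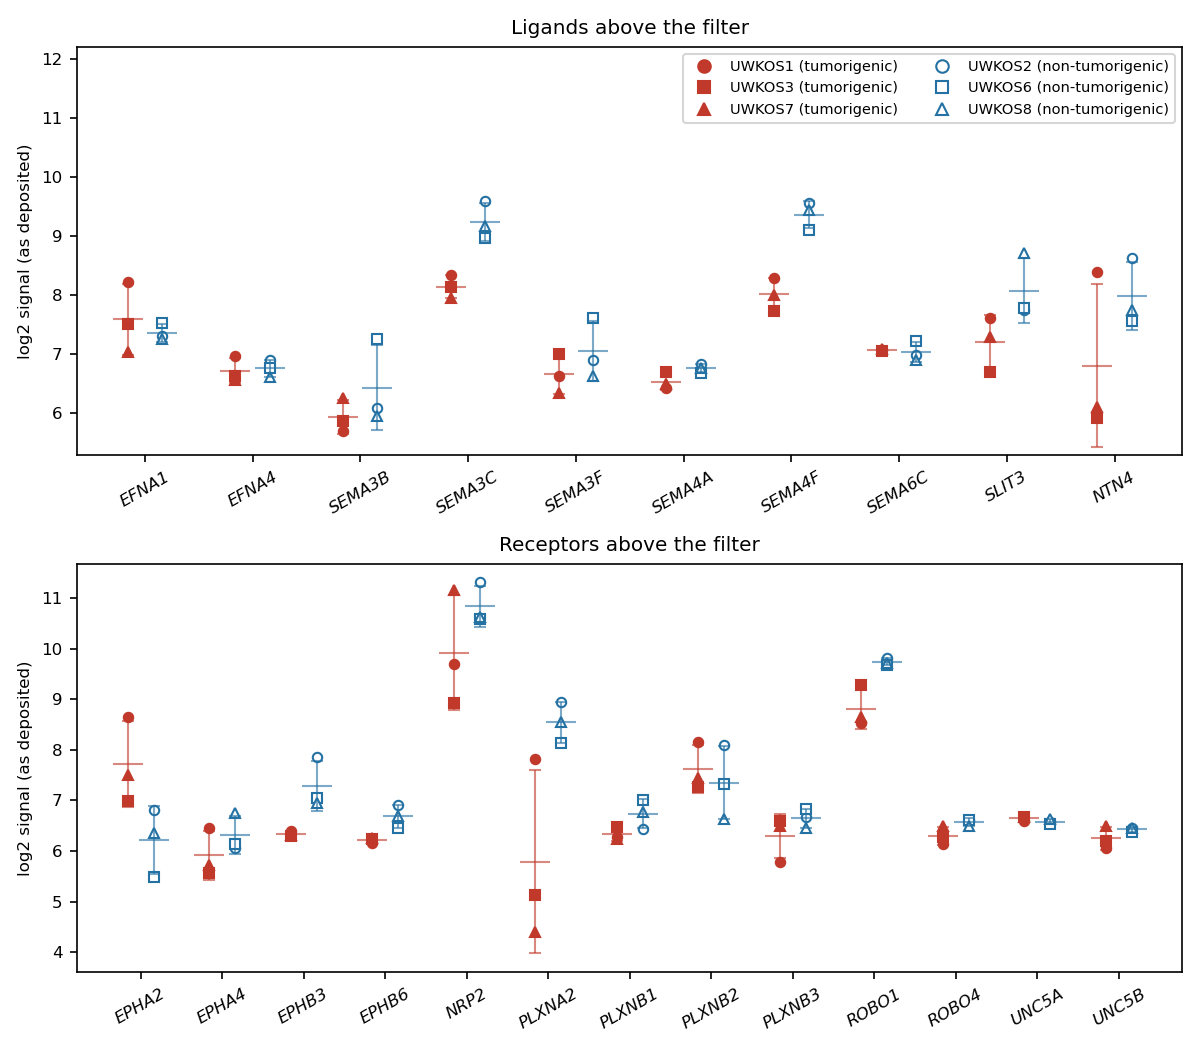
Log2 signal of the brightest probe set of the 10 tested ligands (top) and 13 tested receptors (bottom) in each of the 6 lines, with tumorigenic lines as filled and non-tumorigenic lines as open symbols; bars are the mean ± SD of 3 lines. The groups are apart for SEMA4F and SEMA3C, whereas UWKOS1 stands with the non-tumorigenic lines for PLXNA2 and NTN4 and UWKOS7 does so for NRP2.

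In the slit and Robo system ROBO1 fell, and the other 2 tested genes, SLIT3 and ROBO4, did not pass. SLIT3, a secreted slit also made by bone cells, read 7.61, 6.71 and 7.30 in UWKOS1, UWKOS3 and UWKOS7, and 7.74, 7.79 and 8.71 in UWKOS2, UWKOS6 and UWKOS8. The groups did not overlap, and UWKOS1 lay close to UWKOS2 and UWKOS6. The difference of -0.87 had an SE of 0.35 and a limma adjusted p of 0.144, and without UWKOS8, the highest line, it was -0.56 (limma adjusted p = 0.323). SLIT1 and SLIT2 lay below the filter, with means of 5.43 and 4.95 and differences of -0.05 and -0.06.

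ROBO1 is the main slit receptor outside the nervous system. Its brightest probe set read 8.53 in UWKOS1, 9.28 in UWKOS3 and 8.65 in UWKOS7, and 9.82, 9.69 and 9.72 in UWKOS2, UWKOS6 and UWKOS8. The non-tumorigenic lines were almost equal, and UWKOS3 lay nearer to them than the other tumorigenic lines did. The means were 8.82 ± 0.41 and 9.74 ± 0.07 (SD, n = 3 lines each), a difference of -0.92 (SE 0.23, limma adjusted p = 0.0492), or 1.90-fold lower. The call was narrow: it was lost without the filter (limma adjusted p = 0.0612, where 6.62% of 15115 genes were called), and the other 2 ROBO1 probe sets gave -0.05 and -0.17. The mean of the 3 probe sets differed by -0.38 (limma adjusted p = 0.212). ROBO4, a Robo receptor of endothelial cells, differed by -0.27 (limma adjusted p = 0.294), and its other probe set, below the filter, by 0.08. ROBO2 and ROBO3 lay below the filter, with differences of -0.26 and -0.29.

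**Figure D3:**
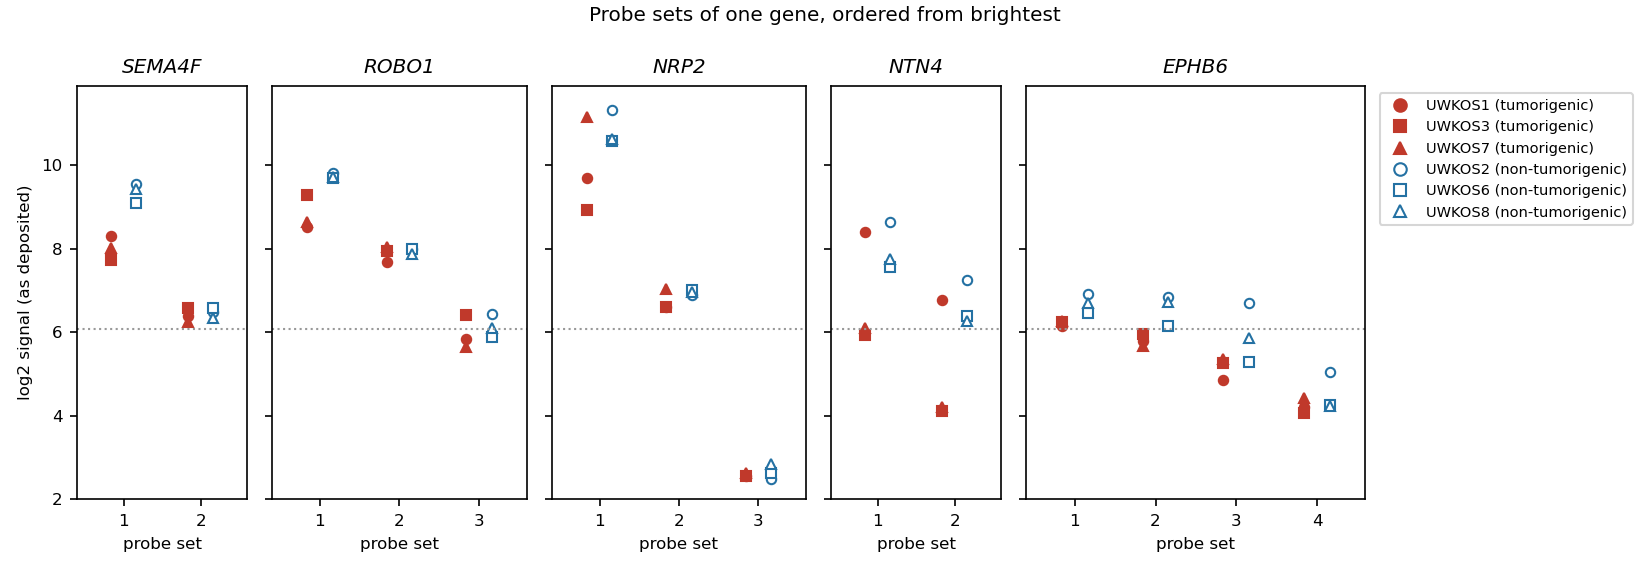
Log2 signal of every probe set of 5 members in the 6 lines, each panel ordered from the brightest probe set, with the filter as a dotted line. The gap between the groups of SEMA4F and ROBO1 is present in the first probe set, the groups overlap in the others, and both NTN4 probe sets place UWKOS1 with the non-tumorigenic lines and all 4 EPHB6 probe sets are lower on average in the tumorigenic lines.

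Of the netrins, NTN4, which binds laminin in basement membranes, was tested and did not pass. It read 8.39 in UWKOS1, 5.92 in UWKOS3 and 6.10 in UWKOS7, against 8.64, 7.57 and 7.75 in UWKOS2, UWKOS6 and UWKOS8. As with PLXNA2, UWKOS1 stood with the non-tumorigenic lines and the other tumorigenic lines lay lower. The difference was -1.18 (95% interval -2.84 to 0.49, limma adjusted p = 0.294), and -1.97 without UWKOS1 (limma adjusted p = 0.0437) but -0.74 without UWKOS3 (limma adjusted p = 0.557). Its second probe set had the same pattern, with UWKOS1 at 6.76 beside 6.27 to 7.26 in the non-tumorigenic lines and the other tumorigenic lines below it, and a difference of -1.62. NTN1, the founding netrin, lay below the filter and differed by -0.03. The netrin receptors UNC5A and UNC5B differed by 0.06 and -0.18 and did not pass (limma adjusted p = 0.776 and 0.498). UNC5A had the narrowest range of any tested member, 0.13 over the 6 lines. UNC5C and UNC5D lay below the filter and differed by -0.10 and -0.05.

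In the Eph and ephrin system 6 of 20 measured genes were tested and 0 passed, with 3 Eph receptors at an unadjusted limma p under 0.05. EPHA2, a receptor raised in many carcinomas and studied as an osteosarcoma target, was the only tested member whose tumorigenic lines all lay above the non-tumorigenic ones. It read 8.65 in UWKOS1, 6.99 in UWKOS3 and 7.51 in UWKOS7, and 6.82, 5.48 and 6.36 in UWKOS2, UWKOS6 and UWKOS8. UWKOS3 and UWKOS2 nearly met, and the spread within both groups was wide. The difference of 1.5 (SE 0.51, 95% interval 0.26 to 2.74) did not pass (limma adjusted p = 0.103). EFNA1, its main ligand, read 8.23 in UWKOS1 and 7.04 to 7.54 in the other 5 lines, a difference of 0.23 (limma adjusted p = 0.657). A second EFNA1 probe set gave 0.67. Without UWKOS1 the difference on the brightest probe set was -0.09, so its direction rested on that line.

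EPHB3, a receptor for B-type ephrins, read 6.41, 6.30 and 6.32 in the tumorigenic lines in the same order, and 7.86, 7.05 and 6.95 in UWKOS2, UWKOS6 and UWKOS8. The tumorigenic lines were nearly equal and all below the others, of which UWKOS2 was the highest. The difference was -0.94 (SE 0.26, limma adjusted p = 0.0661), and it passed with arrays centred on the 75th percentile (limma adjusted p = 0.0485). EPHB6, whose kinase domain is inactive, differed by -0.47 (SE 0.17, limma adjusted p = 0.115) with no overlap of the groups, on an _x_at probe set, a type that can also bind transcripts of other genes. The other EPHB6 probe sets gave -0.77, -0.80 and -0.28. EPHA4 differed by -0.41 and EFNA4 by -0.04. EFNA4 turned positive in 4 of 17 alternative fits. Among them was centring on the hybridization controls, which moved the median of all genes from 0.03 to 0.20.

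Of the 38 members below the filter, 0 passed in the limma fit without it, against 94 of the 5970 genes below the filter (1.57%). At an unadjusted limma p under 0.05 there were 3 (EPHA6, EPHB2 and SEMA6D), or 7.89% against 9.35% of those genes. Groups did not overlap for 2 with higher signal (7.1% of the 5970 genes below the filter), SEMA6D and EFNB1, and for 4 with lower signal (12.8%), EPHA6, EPHB2, SEMA3E and SEMA4C. SEMA6D, a membrane-bound class 6 semaphorin that binds PLXNA1, read 5.89 in UWKOS1, 5.87 in UWKOS3 and 3.92 in UWKOS7, against 3.46, 3.46 and 3.61. UWKOS7 lay close to the non-tumorigenic lines, and the difference of 1.72 had a limma adjusted p of 0.115. Without UWKOS7 it was 2.37 (limma adjusted p = 0.0083), while its other probe set, also dim, differed by 0.00 to 2 decimals over all lines. EFNB1, a ligand of EphB receptors that acts in skeletal patterning, read 6.33 in UWKOS1 and 4.96 to 5.25 in the other 5 lines. EPHA6, EPHB2, SEMA3E and SEMA4C were lower by small amounts, with differences of -0.41, -0.32, -0.46 and -0.27. EPHB4 and EFNB2, the pair known from osteoblast and osteoclast signalling, differed by 0.33 and -0.22, and SEMA4D by -0.12. The other 18 members below the filter had differences from -0.41 to 0.69: the ephrins EFNA3, EFNA5 and EFNB3, the receptors EPHA1, EPHA3, EPHA7, EPHA8, EPHA10 and EPHB1, and the semaphorins SEMA3A, SEMA3D, SEMA3G, SEMA4B, SEMA4G, SEMA5A, SEMA6A, SEMA6B and SEMA7A.

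The range from the lowest to the highest line had a median of 1.27 for the tested members and 1.01 for all genes tested, and it was 2 or more for 5 of 23 members (21.7%, against 14.3%). These 5 were PLXNA2 (4.55), EPHA2 (3.17), NTN4 (2.71), NRP2 (2.39) and SLIT3 (2.0). The groups did not overlap for PLXNA2, EPHA2 and SLIT3 and overlapped for the other two. UWKOS2 was the highest line for 10 of the 23 members, while it was the highest for 12.6% of all genes tested. UWKOS2 had the lowest transcript-end signal of the non-tumorigenic lines, within the range of the tumorigenic ones. These shares are descriptions of 6 lines and were not tested.

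Leaving out lines showed how far each call rests on one of them. SEMA4F passed without any 1 of the tumorigenic lines (limma adjusted p = 0.0313 to 0.0494) and missed the threshold without UWKOS2, UWKOS6 or UWKOS8 (limma adjusted p = 0.0523, 0.0717 and 0.0623), with differences between -1.21 and -1.49 throughout. SEMA3C passed without UWKOS1 or UWKOS7 (limma adjusted p = 0.0499 and 0.0493) and missed without any of the other 4 (limma adjusted p = 0.0621 to 0.0862). ROBO1 passed only without UWKOS3 (limma adjusted p = 0.0382) and otherwise ranged from 0.0859 to 0.15. Over all genes, 1109 of 9145 were called with all lines, 1313 without UWKOS7, 333 to 588 without UWKOS1, UWKOS2, UWKOS3 or UWKOS8, and 12 without UWKOS6 (0.131%). With the mean transcript-end signal as a covariate the differences were -1.55 for SEMA4F, -1.46 for SEMA3C and -1.01 for ROBO1. Without it they were -1.35, -1.09 and -0.92. With the covariate 0 of the 3 passed (limma adjusted p = 0.158, 0.135 and 0.26). That fit called 11 of 9145 genes (0.12%). UWKOS6 and UWKOS8, both non-tumorigenic, had the highest transcript-end signal, so that fit cannot fully tell RNA quality from group. With both left out, UWKOS2 stands alone in its group, its spread being taken from the tumorigenic lines; the differences were then -1.54, -1.44 and -1.0, and 1 of 9145 genes was called (0.0109%).

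**Figure D4:**
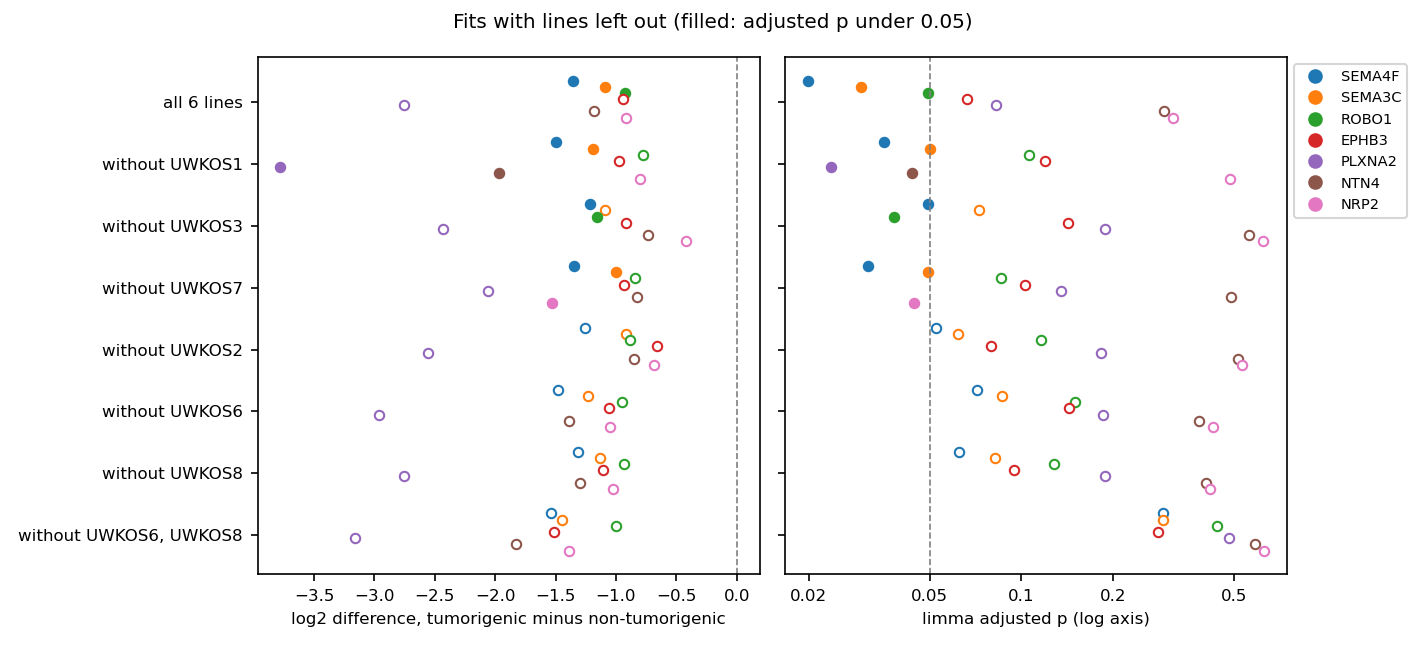
Left, log2 difference (tumorigenic minus non-tumorigenic) and right, limma adjusted p on a log axis, for 7 members with all 6 lines and with lines left out; filled points have an adjusted p under 0.05, and the dashed lines mark 0 and 0.05. All differences stay below 0, SEMA4F moves only between -1.21 and -1.54, and PLXNA2 and NTN4 pass when UWKOS1 is left out and NRP2 when UWKOS7 is.

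A list of 143 genes that act with or below these receptors (among them other co-receptors, kinases, CRMPs and cofilin regulators) was counted in the same fit. Of 128 measured and 91 tested, 2 rose, 11 fell and 78 did not pass, against 7.5% called higher and 4.63% called lower over all genes tested. The median difference was -0.17. With arrays centred on the hybridization controls 3 rose and 8 fell, in a fit where 78.4% of all calls were higher against 61.9% without that centring. Among the tested genes NEO1 had the larger of the 2 rises. NEO1, or neogenin, a receptor for netrins and repulsive guidance molecules, read 8.23, 8.19 and 7.98 in UWKOS1, UWKOS3 and UWKOS7 and 6.71, 6.0 and 6.30 in UWKOS2, UWKOS6 and UWKOS8. The groups were clearly apart, with a rise of 1.80 (SE 0.22, limma adjusted p = 0.0144), or 3.48-fold. A dimmer NEO1 probe set, below the filter, gave 0.03. Without UWKOS6 the rise was 1.63 (limma adjusted p = 0.0713), and the call held without each of the other lines. Of the 37 pathway genes below the filter, 1 was called in the fit without it, GRIP1, a scaffold that binds B-type ephrins and Eph receptors, named here with its values in view. It read 7.47, 7.74 and 7.07 against 4.16, 4.82 and 4.56, with a mean of 5.97 over the lines, a difference of 2.92 (limma adjusted p = 0.0107 without the filter). Its other 4 probe sets gave -0.06 to 0.48. RND3 rose by 0.91 (limma adjusted p = 0.0347), and lost the call without any 1 line (limma adjusted p = 0.0504 to 0.135).

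Among those that fell, FES, a tyrosine kinase reported below plexins and semaphorins, read, in the same order of lines, 5.86, 6.90 and 6.02 against 7.94, 8.69 and 8.44, a difference of -2.10 (limma adjusted p = 0.0205). Both of its probe sets were lower in each tumorigenic line, and the dimmer gave -2.43. SDC2, a heparan sulphate proteoglycan of the cell surface, read 12.26, 11.08 and 12.64 against 13.68, 13.58 and 13.83, and its 3 probe sets differed by -1.71 to -2.21. PIK3R1, the regulatory subunit of PI3-kinase, fell by 2.50, with UWKOS2 at 8.16 well below the 9.86 and 9.96 of UWKOS6 and UWKOS8. MAGED1, which binds UNC5 receptors and the neurotrophin receptor NGFR, fell by 1.86, and DAPK1, a death kinase described below UNC5, by 1.60. The endocytic scaffolds ITSN1 and ITSN2, of which ITSN1 is tied to EphB signalling, fell by 1.34 and 1.04. The kinase CDK5, which phosphorylates CRMPs (-0.96), the Rac effector kinase PAK3 (-0.91), the small GTPase RRAS, on which plexins act (-0.82), and the scaffold KIDINS220, which binds neurotrophin receptors (-0.73), complete the group. The groups overlapped on other probe sets above the filter for KIDINS220 (-0.44 and -0.13), PAK3 (-0.30), RRAS (-0.54), MAGED1 (-0.80) and DAPK1 (-0.21 and -0.69). They did not overlap on another DAPK1 probe set (-1.24) or on those of ITSN1 (-0.88) and ITSN2 (-1.08 and -0.48). The other CDK5 probe set, below the filter, gave -0.16 with overlap. Without UWKOS6, and likewise without UWKOS8, 0 of the pathway genes were called lower, while 16 and 19 were lower at an unadjusted limma p under 0.05. The next by p did not pass: the Src-family kinase YES1 (0.62), the CRMP gene DPYSL3 (-0.66), PAK2 (0.85) and the cofilin phosphatase SSH3 (-0.67).

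**Figure D5:**
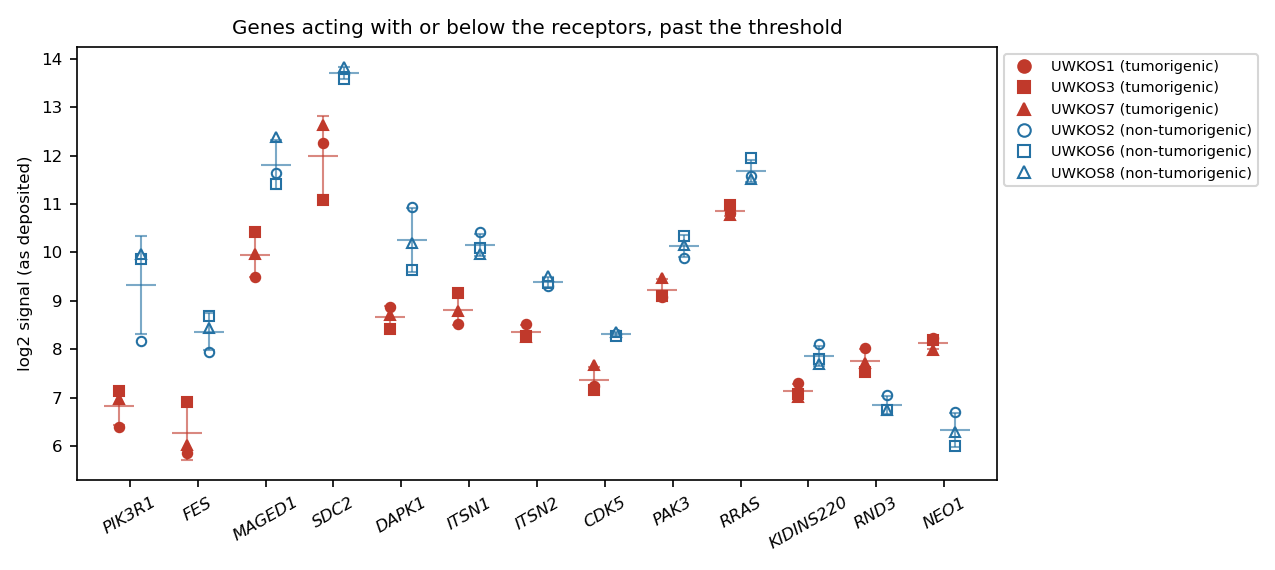
Log2 signal of the pathway genes that passed, in each of the 6 lines, with tumorigenic lines filled and non-tumorigenic lines open and bars for the mean ± SD of 3 lines. NEO1 and RND3 lie higher in the tumorigenic lines and the other 11 genes lower, and UWKOS2 stands apart from UWKOS6 and UWKOS8 for PIK3R1.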

How the data were processed

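Signals of 43035 probe sets on 6 canine arrays, 1 per line, were used as log2 values as deposited by the authors. Per the submitters' processing notes, MAS5 was the tool; its version is not given in the sources used here. The table does not state its summary method, its log base or how arrays were scaled (log2 was inferred from the range of 1.97 to 14.83, and array medians were 6.03 to 6.05). With 1 array per line, the number of arrays limits the precision. Control probe sets (111) were left out. Of the other 42924, 29254 had 1 gene symbol, 439 several and 13231 none, and 27680 of these probe sets were matched to the RefSeq table by gene ID. No coordinates or sequences are given, since no sequence table and no genome of a named build came with the series. Gene positions in the RefSeq table were used only for the order of neighbouring genes.

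Each gene was read by its brightest probe set with 1 symbol, and genes with a mean at or above 6.07 were tested with limma 3.58.1 (lmFit, eBayes) in R 4.3.3, with Benjamini-Hochberg adjustment over 9145 genes. Values given "without the filter" come from a fit of all 15115 genes, and those of other probe sets from a fit over probe sets. Control measures were compared with a two-sided exact permutation test. Scripts were tested on simulated data. For 41 of the 61 members the brightest probe set is of the _s_at type, which can read more than 1 transcript. Figures used matplotlib 3.10.9.

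Named genes were members past the threshold, up to 3 per family by p and the brightest, members below the filter without overlap, and pathway genes past the threshold with the next 4. The members and gene lists were chosen with earlier results of these data known. Alternatives changed the filter, normalization, centring, variance model, array weights, probe set summary, RNA quality covariate and lines used. Replicate numbers follow deposit order and pair nothing.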

Additional observations from a re-analysis of the deposited data

How the results depend on the processing

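No paired analysis was possible because each line is a sample of its own and the replicate numbers pair none of them. For the count of 3 members lower, 0 passed with the GAPDH transcript-end signal as a covariate, 0 with the mean transcript-end signal and 0 without both UWKOS6 and UWKOS8 (at an unadjusted limma p under 0.05 there were 5, 6 and 4 members, 5, 6 and 4 of them lower), and with a line left out it ranged from 0 to 4, being 0 without UWKOS2, UWKOS6 or UWKOS8. In every alternative run 0 of the tested members were called higher, with 0 or 1 at an unadjusted limma p under 0.05. SEMA6D, below the filter, passed as higher without UWKOS7 in the fit without the filter (limma adjusted p = 0.0083). For pathway genes the count of 2 higher was 0 with the upper-quartile filter, 4 with array weights, 0 with either covariate and 0 without both lines, and 0 to 4 with a line left out; the count of 11 lower was 5 with the mean of probe sets, 0 with either covariate and 0 without both lines, and 0 to 11 with a line left out (unadjusted, 3 were higher with the upper-quartile filter, and 4 higher and 15 lower, 4 and 14, and 1 and 11 with the GAPDH covariate, the mean covariate and without both lines). Fits with a covariate or fewer lines have fewer degrees of freedom. Whether this accounts for their lower counts was not tested, and neither was the cause of the other changes. Centring on the hybridization controls moved the median of all tested genes from 0.03 to 0.20 and the share of calls that were higher from 61.9% to 78.4%, with 3 pathway genes higher and 8 lower and 2 members lower (ROBO1 missed, limma adjusted p = 0.107); the members' median minus that of all genes was -0.43 in both. ROBO1 also missed with an intensity trend (limma adjusted p = 0.0569) and robust eBayes (0.0509). Of 23 tested members, 18 kept their direction in all settings run. EFNA1, EFNA4, PLXNB2, SEMA6C and UNC5A, none of them past the threshold, did not.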

Other observations

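A few members were high in a single line, which the comparison of groups does not show. These genes were picked with the values in view. SEMA3A, a secreted semaphorin that promotes bone formation and restrains resorption, read 6.70 in UWKOS1 and 4.53 to 4.98 in the other 5 lines, and its second probe set read 7.60 in UWKOS1 and 3.12 to 3.89 elsewhere. Both probe sets thus placed UWKOS1 above the other lines. SEMA3E lies next to SEMA3A in the RefSeq gene order and SEMA3D lies 1 protein-coding gene further on; neither was highest in UWKOS1, where SEMA3D read 4.82, its lowest value. EFNA1 and its neighbour EFNA3, which lay below the filter, were also highest in UWKOS1, at 8.23 and 4.71, with the next lines at 7.54 and 4.29. EFNA4, which follows EFNA3, read 6.98 in UWKOS1 and 6.91 in UWKOS2, so it was not high in a single line.

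On the brightest probe sets UWKOS2 held the highest signal of the Robo genes ROBO1 to ROBO4, for ROBO4 narrowly (6.62 against 6.61 in UWKOS6). The other ROBO4 probe set was lowest in UWKOS2, at 5.19. A second ROBO1 probe set (8.05) and a dim ROBO2 probe set (3.69) were highest in UWKOS7. UWKOS2 was highest on the remaining Robo probe sets. A ROBO3 probe set dimmer than the brightest read 7.78 in UWKOS2, 6.68 in UWKOS7, 6.31 in UWKOS6 and 4.23 to 5.17 in the other 3 lines, so its range crossed the groups. A ROBO2 probe set read 5.94 in UWKOS2, 4.42 in UWKOS1 and 2.39 to 3.23 in the other 4 lines.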
